A study of Mus musculus with 24 samples.

Results

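The loss of *Atad2* was examined in mouse testis at postnatal day 24 by comparing 2 libraries from homozygous *Atad2* knockout (KO) males with 2 libraries from wild-type (WT) males, which are 4 of the 24 libraries in the series and all that it has for this age. Both groups were sampled as testis, and no treatment is named for either. The KO allele carries a *lacZ* trapping cassette inside the gene, and its selection cassette and 1 exon were removed by a Cre recombinase driven from the ubiquitous *CMV* promoter, so the alteration is present in every cell type and not in germ cells alone. The strain background of the WT and KO males is not given in the sources used here, and neither is whether the males were littermates. The same genotypes at days 20 and 22 (4 libraries each) and at day 26 (2 libraries each) entered the fit and are used below where they bear on a day 24 result. The methods of the study give fewer samples per genotype at day 20 than the 4 in the labels, and all 4 were used. The libraries are called WT_d24_1, WT_d24_2, KO_d24_1 and KO_d24_2.

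ATAD2 is a chromatin protein with an AAA+ ATPase domain and a bromodomain that reads acetylated histones. In the testis of a young mouse the first germ cells go through meiosis and spermiogenesis as a single synchronous wave. Pachytene spermatocytes are followed by round spermatids and then by elongating spermatids, in which histones give way to transition proteins and protamines. At day 24 the wave is in its early post-meiotic phase, and a testis that is slightly ahead or behind holds a different mix of cells. In RNA from a whole organ, fewer cells of a type and less RNA per cell cannot be told apart, and this applies to every result below.

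The 4 libraries held 14410976 to 16556618 read pairs assigned to genes and 19175 to 19368 genes with at least 1 count. Libraries of 1 genotype differed by more than sampling noise (chi-square per degree of freedom 13.8 between the WT libraries and 6.40 between the KO libraries), so each was kept as a separate sample. The methods of the study call the libraries biological replicates, and the labels do not tie them to animals or litters. Markers of Sertoli cells, Leydig cells, peritubular myoid cells, macrophages, endothelium and every germ cell stage were present in all 4 libraries, as the label testis implies. The extraction protocol in the labels also speaks of purified fractions of spermatogenic cells, whereas the tissue label and the methods of the study name testis, and whether any cell type was depleted was not tested.

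Some transcripts of the epididymis, the duct that lies against the testis, set the libraries numbered 2 apart. The summed level of 9 epididymal markers was 3.04 in WT_d24_1, in units of CPM (library-scaled counts, here with TMM factors), and it was 732 in WT_d24_2, 7.32 in KO_d24_1 and 162 in KO_d24_2. In the libraries numbered 2 most of this was *Crisp1*, which encodes a secreted protein that coats sperm and was at 0.124, 636, 0.0691 and 134 CPM in that order. *Adam7* split the same way, at 0, 47.9, 0 and 22.2 CPM. Not every member of the list did. *Rnase10* was at 1.86, 4.14, 6.35 and 3.99 CPM, highest in KO_d24_1. *Defb30* was at 0.930, 11.7, 0.898 and 0.850, high in WT_d24_2 but not in KO_d24_2. *Lcn5* and *Spink13* entered the sums and are not given singly. The lipocalin genes *Lcn8*, *Lcn9* and *Lcn10* were at 0 in all 4 libraries. The counts of called genes given below were therefore also obtained without each of these libraries.

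*Atad2* itself was measured first. It lies on chromosome 15 (mm10, 58094044 to 58135082, minus strand). Its level was 132 CPM in WT_d24_1, 106 in WT_d24_2, 43.1 in KO_d24_1 and 45.4 in KO_d24_2. The groups did not overlap, with means of 119 ± 18.6 (SD, n = 2) in WT and 44.3 ± 1.65 in KO. The log2 fold change was -1.43 with a standard error (SE) of 0.257, and the adjusted p was 0.0222 by the quasi-likelihood test of edgeR. The residual KO signal is counted over the whole gene, whose exons outside the deleted one remain.

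Of 17170 genes tested, 15 were called at an adjusted p under 0.05, which is 0.0874% of them. Those higher in KO numbered 3 (0.0175%) and those lower in KO numbered 12 (0.0699%), *Atad2* among the latter. At an unadjusted p under 0.05 there were 477 genes higher in KO (2.78% of those tested) and 421 lower (2.45%). Together these were 898 genes, close to the 858.5 expected by chance at this threshold. The median log2 fold change of all genes tested was -0.01. With 2 libraries against 2, an exact permutation test of any single gene cannot give a two-sided p below 0.333, so the calls rest on the spread estimated over all 24 libraries. Leaving out WT_d24_2 left 1 call, leaving out KO_d24_2 left 3, leaving out KO_d24_1 left 0 (497 genes then had an unadjusted p under 0.05), and leaving out WT_d24_1 gave 20, of which 8 were among the 15.

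**Figure D1:**
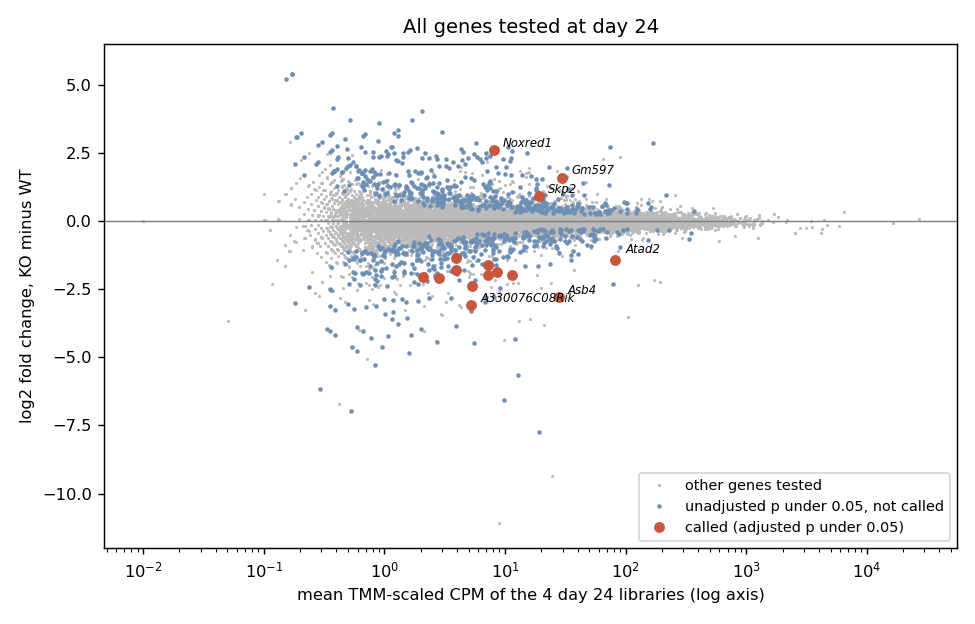
Log2 fold change at day 24 (vertical axis, KO minus WT) against the mean TMM-scaled CPM of the 4 libraries (horizontal log axis) for the 17170 genes tested. Red points are the 15 called genes, 3 above and 12 below zero, with 6 of them named, and blue points have an unadjusted p under 0.05 without being called. Many uncalled genes, often at low levels, had larger fold changes than the called ones.

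The genes lower in KO began with a pair of long intergenic noncoding RNAs and a ubiquitin ligase component. *A330076C08Rik*, a lincRNA on chromosome 13, was at 9.43 and 9.44 CPM in the WT libraries and at 0.760 and 1.44 in the KO libraries. Its log2 fold change was -3.09 (SE 0.360, adjusted p = 0.000459), and it was the call that held when WT_d24_2 was left out. *4933406K04Rik*, a lincRNA on chromosome 12, was at 9.24 and 8.69 CPM in WT and at 1.17 and 2.29 in KO (log2 fold change -2.36). Another lincRNA, *1700047M11Rik* on chromosome 1, was at 5.77 and 6.31 CPM in WT and at 1.93 and 1.57 in KO (log2 fold change -1.78). LincRNAs made up 3 of the 15 called genes and 459 of the 17170 tested.

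*Asb4* encodes a substrate receptor of cullin-5 ubiquitin ligases and lies in an imprinted cluster on chromosome 6. Its level was 47.1 CPM in WT_d24_1, 50.6 in WT_d24_2, 5.94 in KO_d24_1 and 8.17 in KO_d24_2. Both KO libraries were far below both WT libraries (log2 fold change -2.79, SE 0.416, adjusted p = 0.0101). Among the 19 tested genes of the other ASB proteins and their cullin-5 partners none was called by edgeR or DESeq2, 3 had an unadjusted p under 0.05 and all 3 of these were higher in KO. *Asb1* was at 79.8 and 80.2 CPM in WT and at 133 and 121 in KO (log2 fold change 0.67, SE 0.188, adjusted p = 0.354). Of 11 tested genes that neighbour *Asb4* in the imprinted cluster, none was called by either tool, none had an unadjusted p under 0.05, and their median log2 fold change was 0.11.

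Several of the called genes are known best from the nervous system. *Grik2*, a kainate-type glutamate receptor subunit, was at 12.5 and 10.5 CPM in WT and at 2.97 and 2.88 in KO, with a log2 fold change of -1.97 (SE 0.348). *Mdga2*, a membrane-anchored protein that binds neuroligins at synapses, was at 10.6 and 11.1 CPM in WT and at 3.66 and 3.40 in KO (log2 fold change -1.62, SE 0.263). *Sult4a1*, a sulfotransferase family member abundant in brain, was at 3.78 and 2.92 CPM in WT and at 0.483 and 1.11 in KO (log2 fold change -2.05). The 2 groups did not overlap for any of these genes, and the KO libraries differed less from each other than from either WT library.

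*Arfgef3*, of the guanine exchange factor family that acts on ARF GTPases, was at 18.0 and 18.3 CPM in WT and at 4.07 and 5.16 in KO (log2 fold change -1.97, SE 0.301, adjusted p = 0.0101). None of the 15 tested members of a list of other ARF exchange factors was called by edgeR or DESeq2, and 1 had an unadjusted p under 0.05. Its relatives *Arfgef1* and *Arfgef2* had log2 fold changes of -0.15 each (SE 0.131 and 0.179).

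*Ptpro*, a receptor-type tyrosine phosphatase, was at 7.94 CPM in WT_d24_1, 19.2 in WT_d24_2, 3.04 in KO_d24_1 and 4.44 in KO_d24_2, so the WT libraries differed from each other by more than WT_d24_1 differed from the KO libraries. Its log2 fold change was -1.85 (SE 0.320). *Col25a1*, a transmembrane collagen, was at 4.47 and 6.86 CPM in WT and at 2.28 and 2.09 in KO (log2 fold change -1.37). *Mpped1*, which encodes a metallophosphoesterase domain protein, was at 4.34 and 4.82 CPM in WT and at 0.760 and 1.37 in KO (log2 fold change -2.09, adjusted p = 0.0253, the highest among the called genes).

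**Figure D2:**
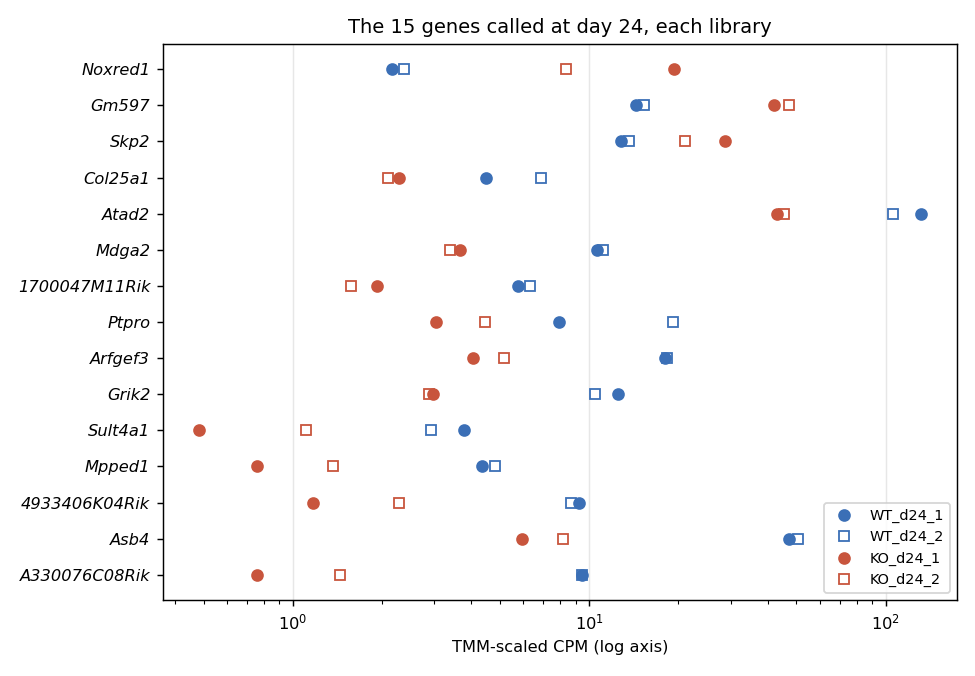
TMM-scaled CPM (horizontal log axis) of the 15 called genes in WT_d24_1, WT_d24_2, KO_d24_1 and KO_d24_2, ordered by log2 fold change, with filled circles for the libraries numbered 1 and open squares for those numbered 2. The red and blue symbols do not overlap for any gene, and on this axis the WT pair of *Ptpro* (7.94 and 19.2) is the widest WT pair.

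The 3 genes higher in KO were *Noxred1*, *Skp2* and *Gm597*. *Noxred1*, which encodes an NADP-dependent oxidoreductase domain protein on chromosome 12, was at 2.17 and 2.38 CPM in WT and at 19.3 and 8.37 in KO. Its log2 fold change was 2.60 (SE 0.441, adjusted p = 0.0204). *Skp2*, the F-box protein with which the SCF ubiquitin ligase recognises cell cycle inhibitors such as p27, was at 12.8 and 13.6 CPM in WT and at 28.7 and 21.0 in KO (log2 fold change 0.91, SE 0.165). *Gm597*, a predicted protein-coding gene on chromosome 1, was at 14.4 and 15.3 CPM in WT and at 41.9 and 47.3 in KO (log2 fold change 1.58, SE 0.287).

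Partners and targets of SKP2 had no call of their own. Of 25 tested genes for SCF subunits, cyclins and inhibitors of cyclin-dependent kinases, none was called by edgeR or DESeq2, 2 had an unadjusted p under 0.05 with lower values in KO, and the median log2 fold change was -0.08. *Ccnd1* (cyclin D1) was at 27.8 and 30.6 CPM in WT and at 18.5 and 18.4 in KO (log2 fold change -0.66, adjusted p = 0.499). *Ccna2* (cyclin A2) was at 48.3 and 36.5 CPM in WT and at 30.2 and 27.6 in KO (log2 fold change -0.55, adjusted p = 0.527). Among 28 tested DNA replication genes none was called by either tool and 1 had an unadjusted p under 0.05, the origin licensing factor *Cdt1*, at 10.0 and 6.59 CPM in WT and 4.21 and 4.84 in KO (log2 fold change -0.88).

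The called genes were spread over 7 chromosomes. Chromosome 15, which holds *Atad2* and 3.97% of the genes tested, carried 4 of the 15, with *Skp2* at 9111985 to 9155425, *Mpped1* at 83779467 to 83858494 and *Sult4a1* at 84076097 to 84105754. Within 5 Mb of *Atad2*, 41 genes were tested and edgeR called none of them, while 3 had an unadjusted p under 0.05, all lower in KO. DESeq2 called 1 of them, *H2afy3*, a processed pseudogene at 62218221 to 62219332. It was at 12.1 and 13.2 CPM in WT and at 3.25 and 4.97 in KO (log2 fold change -1.62, SE 0.322, adjusted p = 0.0571 by edgeR). On days 20 and 22 edgeR called *H2afy3* lower, at -1.84 and -1.98 (adjusted p = 0.000465 and 4.91e-05). On day 26 it was at -1.63 (adjusted p = 0.0556 by edgeR), and the genotypes overlapped on no day. As a pseudogene it may share reads with its parent gene. The strain of the chromosomal segment around the altered allele is not given, so an effect of flanking sequence and one of *Atad2* loss cannot be told apart.

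Sequence before the start was available for 13 of the 15 genes in the RefSeq promoter windows of GRCm38.p6, the same build as mm10, which run from 250 bases before to 50 after a start. The 150 bases before the start are shown, 5′ to 3′ on the strand of the gene with each CG dinucleotide in capitals, for the 5 called genes whose RefSeq and GENCODE starts coincide, because they include the gene with the lowest p among those lower in KO and differ in their CG content.
A330076C08Rik (lower in KO, chr13:44216488-44216637, minus strand): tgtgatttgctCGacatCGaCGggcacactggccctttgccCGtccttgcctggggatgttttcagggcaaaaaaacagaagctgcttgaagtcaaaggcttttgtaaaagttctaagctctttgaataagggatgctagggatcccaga
Asb4 (lower in KO, chr6:5383236-5383385, plus strand): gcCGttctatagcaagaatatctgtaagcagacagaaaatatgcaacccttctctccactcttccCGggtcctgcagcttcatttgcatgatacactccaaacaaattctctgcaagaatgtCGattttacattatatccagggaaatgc
Mdga2 (lower in KO, chr12:67222550-67222699, minus strand): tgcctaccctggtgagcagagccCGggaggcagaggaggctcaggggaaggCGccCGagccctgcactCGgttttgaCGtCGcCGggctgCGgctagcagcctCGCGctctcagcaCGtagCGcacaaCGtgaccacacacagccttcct
Skp2 (higher in KO, chr15:9155426-9155575, minus strand): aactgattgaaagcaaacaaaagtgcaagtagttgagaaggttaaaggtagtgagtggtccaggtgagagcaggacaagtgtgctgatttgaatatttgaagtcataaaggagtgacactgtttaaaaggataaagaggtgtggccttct
Gm597 (higher in KO, chr1:28780253-28780402, minus strand): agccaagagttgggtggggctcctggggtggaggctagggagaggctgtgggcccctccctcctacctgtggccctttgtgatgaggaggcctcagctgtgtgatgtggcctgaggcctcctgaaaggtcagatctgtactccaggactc

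The 300-base windows of these genes held 8 CG dinucleotides for *A330076C08Rik*, 6 for *Asb4*, 22 for *Mdga2*, 0 for *Skp2* and 0 for *Gm597*, against a median of 7 over all 32851 windows. As few as 0 CG were found in 5.43% of all windows. *Skp2* has a second window 14971 bases downstream with 23 CG, and *Asb4* has one 7024 bases away with 8 CG. For both genes the counts do not tell which start was used. Searched on both strands, TATAAA, the E-box CACGTG and the cAMP response element TGACGTCA were in none of the 13 windows and in 13.6%, 7.15% and 1.79% of all windows. CCAAT was in 5 of 13 (37.4% of all), GGGCGG in 4 (35.7%), TGACG, which is contained in TGACGTCA, in 4 (20.8%), GTTGCC in 1 (12.5%) and TTCCGG in 1 (14.9%). These matches describe the letters in the windows and were not tested.

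The day 24 effect was then set beside the effect on the other days. All 12 genes lower at day 24 were lower by sign at days 20, 22 and 26. Of these 12, 9 were called lower at day 20 (where 0.361% of genes tested were), 12 at day 22 (1.25%) and 6 at day 26 (0.0466%). The days share no library, but they share 1 estimate of the spread. *Asb4* had log2 fold changes of -2.31, -3.56, -2.79 and -2.60 at days 20, 22, 24 and 26. *A330076C08Rik* had -2.57, -3.11, -3.09 and -2.43 in the same order. *Ptpro* was the member with the smallest early difference, at -0.35 (SE 0.231) on day 20, -1.56 on day 22, -1.85 on day 24 and -2.56 on day 26. The WT level of *Ptpro* ranged from 3.96 to 6.28 CPM at day 20 and from 14.6 to 15.8 at day 26, while the KO level ranged from 3.20 to 4.57 and from 2.20 to 2.92.

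**Figure D3:**
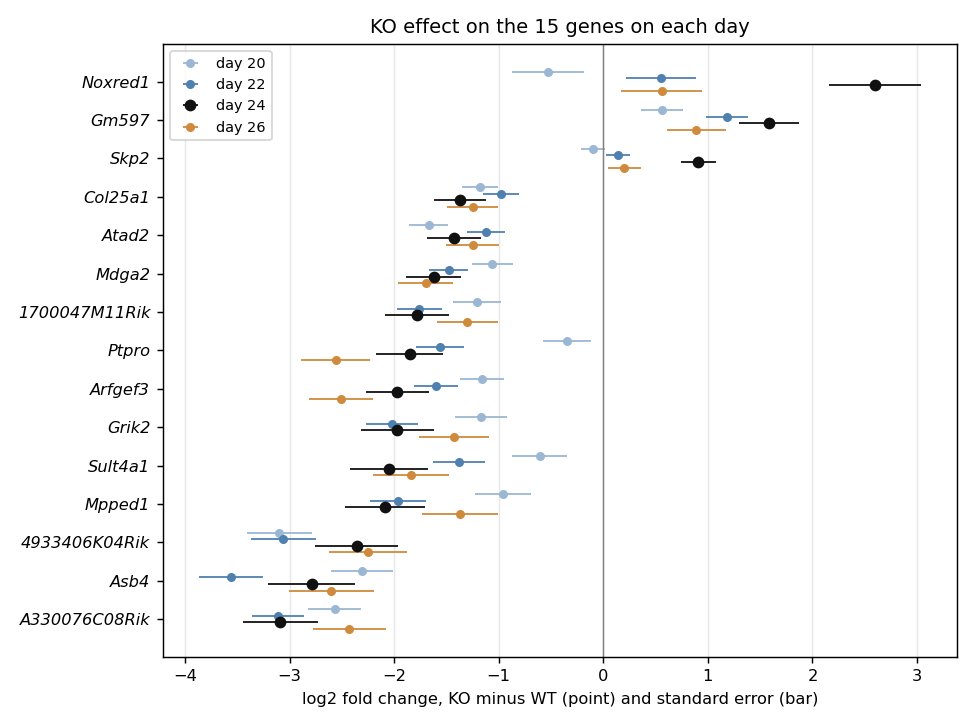
Log2 fold change of KO against WT (point) with its standard error (bar) for the 15 genes called at day 24, on each of the 4 days. The 12 genes lower at day 24 lie left of zero on every day, while *Noxred1* and *Skp2* lie farthest to the right at day 24, at 2.60 and 0.91.

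The 3 genes higher in KO showed other profiles over the days. *Gm597* was called at day 22 as well (log2 fold change 1.18, adjusted p = 0.00464, with 1.26% of genes called higher on that day), and its log2 fold changes were 0.56 at day 20 and 0.89 at day 26. *Noxred1* had log2 fold changes of -0.53, 0.55, 2.60 and 0.56 at days 20, 22, 24 and 26. Its level in WT was 1.51 to 1.92 CPM at day 22, 2.17 and 2.38 at day 24 and 14.3 to 26.8 at day 26, and in KO it was 1.33 to 4.39, then 19.3 and 8.37, then 30.1 to 30.6. The KO libraries of day 24 thus lay between the WT libraries of day 24 and the higher WT library of day 26. *Skp2* had the same order, with 11.5 to 13.3 CPM in WT at day 22, 12.8 and 13.6 at day 24 and 33.8 to 42.6 at day 26, and with 28.7 and 21.0 in the KO libraries of day 24.

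Whether the KO effect at day 24 differed from that on other days was tested for every gene. Against day 22, edgeR and DESeq2 called 0 genes, with 523 at an unadjusted p under 0.05 by edgeR. Against day 26, both tools called 0 genes, with 588 at an unadjusted p under 0.05. Against the mean of the 3 other days, edgeR called 0 genes, with 648 at an unadjusted p under 0.05, and DESeq2 called 4. All of these unadjusted counts were below the 858.5 expected by chance. *Noxred1* differed by 2.40 on the log2 scale (SE 0.482) and *Skp2* by 0.83 (SE 0.182), each at an adjusted p of 0.692. No gene was therefore shown to respond at day 24 in particular by the test named for the comparison.

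**Figure D4:**
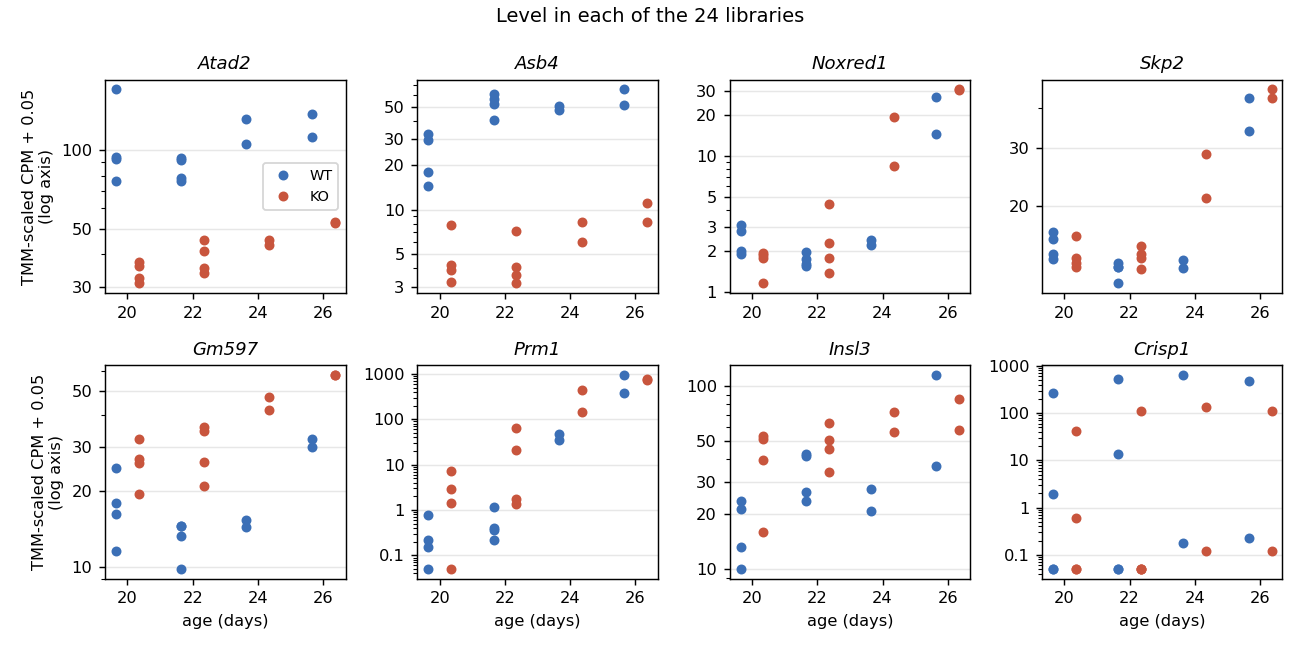
TMM-scaled CPM plus 0.05 (vertical log axes) of 8 genes in each of the 24 libraries against age in days, blue for WT and red for KO and shifted sideways to keep them apart. *Atad2* and *Asb4* are lower in KO at every age, *Noxred1*, *Skp2* and *Prm1* climb between days 22 and 26 with the KO libraries of day 24 above the WT libraries of day 24, and *Crisp1* splits every group by library.

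Genes that missed the threshold most narrowly were taken by lowest p among those at a mean of at least 1 CPM whose libraries did not overlap. A lack of overlap in 2 against 2 is common here, with both KO libraries above both WT libraries for 22.6% of genes tested and below them for 21.4%. On the higher side, *Wbp2nl*, a protein of the sperm post-acrosomal sheath, was at 4.59 and 5.91 CPM in WT and at 22.0 and 12.2 in KO (log2 fold change 1.70, adjusted p = 0.0822). *Paqr5*, a membrane progestin receptor, was at 1.24 and 1.15 CPM in WT and at 10.6 and 4.38 in KO (2.63, adjusted p = 0.0843). *Col27a1*, a fibrillar collagen, was at 4.34 and 11.6 CPM in WT and at 22.5 and 27.8 in KO (1.66, adjusted p = 0.155). The other 5 were *Zfp93*, *6430548M08Rik*, *Npas3* and the pseudogenes *Hmgb1-rs17* and *Speer8-ps1*. At day 22, where 1.26% of genes tested were called higher, edgeR called *Wbp2nl*, *Paqr5*, *Col27a1* and *6430548M08Rik*. Their log2 fold changes were 1.27, 2.32, 1.04 and 0.88. It called none of them at days 20 and 26. *Zfp93*, *Npas3* and both pseudogenes were called on no day. In KO_d24_1 *Wbp2nl*, *Paqr5* and *Noxred1* were each higher than in KO_d24_2, as were the protamines described below.

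On the lower side, *Scn3a*, a voltage-gated sodium channel, was at 4.59 and 4.28 CPM in WT and at 1.17 and 0.850 in KO (log2 fold change -2.13, adjusted p = 0.0656). *Tnc*, the matrix protein tenascin C, was at 3.85 and 5.02 CPM in WT and at 1.04 and 0.980 in KO (-2.13, adjusted p = 0.0843). *Nnat*, an imprinted gene on chromosome 2, was at 1.36 and 4.01 CPM in WT and at 0.483 and 0.196 in KO (-2.96, adjusted p = 0.0617). *Prokr1*, a prokineticin receptor, was at 2.05 and 6.31 CPM in WT and at 1.24 and 0.850 in KO (-1.99, adjusted p = 0.0656). *Aplnr*, the apelin receptor, had a log2 fold change of -2.19 (adjusted p = 0.0665), with WT_d24_2 again the highest library. *Spint5*, a protease inhibitor gene, was at 1.49 CPM in WT_d24_1, 45.1 in WT_d24_2, 1.10 in KO_d24_1 and 1.18 in KO_d24_2, so that its log2 fold change of -4.34 came from the library with most epididymal transcripts. The part of these transcripts in the difference was not tested. *Gm7694* and *H2afy3* completed the group of 8. EdgeR called *Scn3a*, *Tnc* and *H2afy3* lower at days 20 and 22, and *Gm7694* at day 22. Of all genes tested, 0.361% were called lower at day 20 and 1.25% at day 22. *Nnat*, *Prokr1*, *Aplnr* and *Spint5* were called on no day. *Spint5* had log2 fold changes of -0.41, -0.19 and -0.10 at days 20, 22 and 26.

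The germ cell stages were followed through marker lists, none of whose members was called by edgeR or DESeq2. Elongating spermatid markers stood apart from the earlier stages. All 14 had a positive log2 fold change, 2 had an unadjusted p under 0.05, the libraries did not overlap for 11 (78.6%, against 22.6% of all genes tested), and the median was 0.74. Their summed level was 869 and 713 CPM in WT and 2100 and 1140 in KO. *Prm1*, the first of the protamines that package sperm DNA, was at 34.4 CPM in WT_d24_1, 47.0 in WT_d24_2, 443 in KO_d24_1 and 146 in KO_d24_2 (log2 fold change 2.86, SE 1.25, adjusted p = 0.892). *Tnp2*, a transition protein, was at 25.7 and 33.9 CPM in WT and at 219 and 84.4 in KO (log2 fold change 2.35, SE 1.13, adjusted p = 0.968).

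The differences within this list were uneven. *Prm1*, *Prm2*, *Tnp1* and *Tnp2* had log2 fold changes of 2.28 to 2.86. *Smcp* and *Gapdhs*, of the sperm mitochondrial sheath and of sperm glycolysis, had 0.11 (SE 0.937) and 0.29 (SE 0.754). These genes turn on steeply over the days sampled, as *Prm1* was at 0.167 to 1.13 CPM in WT at day 22 and at 385 to 944 in WT at day 26, and the large standard errors reflect the spread between libraries of 1 group. In KO at day 22 *Prm1* was at 1.69, 65.3, 21.5 and 1.34 CPM, above every WT library of that day (log2 fold change 5.53, adjusted p = 0.0302 by edgeR). *Prm2*, *Tnp2* and *Spem1* were called higher in KO at day 22 too, with log2 fold changes of 5.02, 4.46 and 5.24, and 1.26% of all genes tested were called in that direction. Their libraries overlapped on that day, however. The lowest KO library was at 0.544, 1.33 and 0.134 CPM, and the highest WT library at 0.634, 1.34 and 0.153. At day 24 the fold between the 2 KO libraries was, for *Prm1* and *Tnp2*, close to the fold between the lower KO library and the higher WT library.

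Earlier stages showed little net difference. Round spermatid markers (15 tested) had a median log2 fold change of -0.03, none with an unadjusted p under 0.05, and a summed level of 1090 and 855 CPM in WT and 969 and 936 in KO. Pachytene spermatocyte markers (12 tested) had a median of 0.06 and 1 with an unadjusted p under 0.05, *Pou5f2*, at 31.6 and 33.8 CPM in WT and 46.2 and 49.4 in KO. The medians of the early meiosis list (12 tested) and the spermatogonia list (13 tested) were -0.05 and 0.02, again with no unadjusted p under 0.05. Acrosome genes (23 tested) and sperm tail genes (29 tested) had medians of -0.03 and 0.04, with no call by either tool and 1 and 0 genes at an unadjusted p under 0.05.

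**Figure D5:**
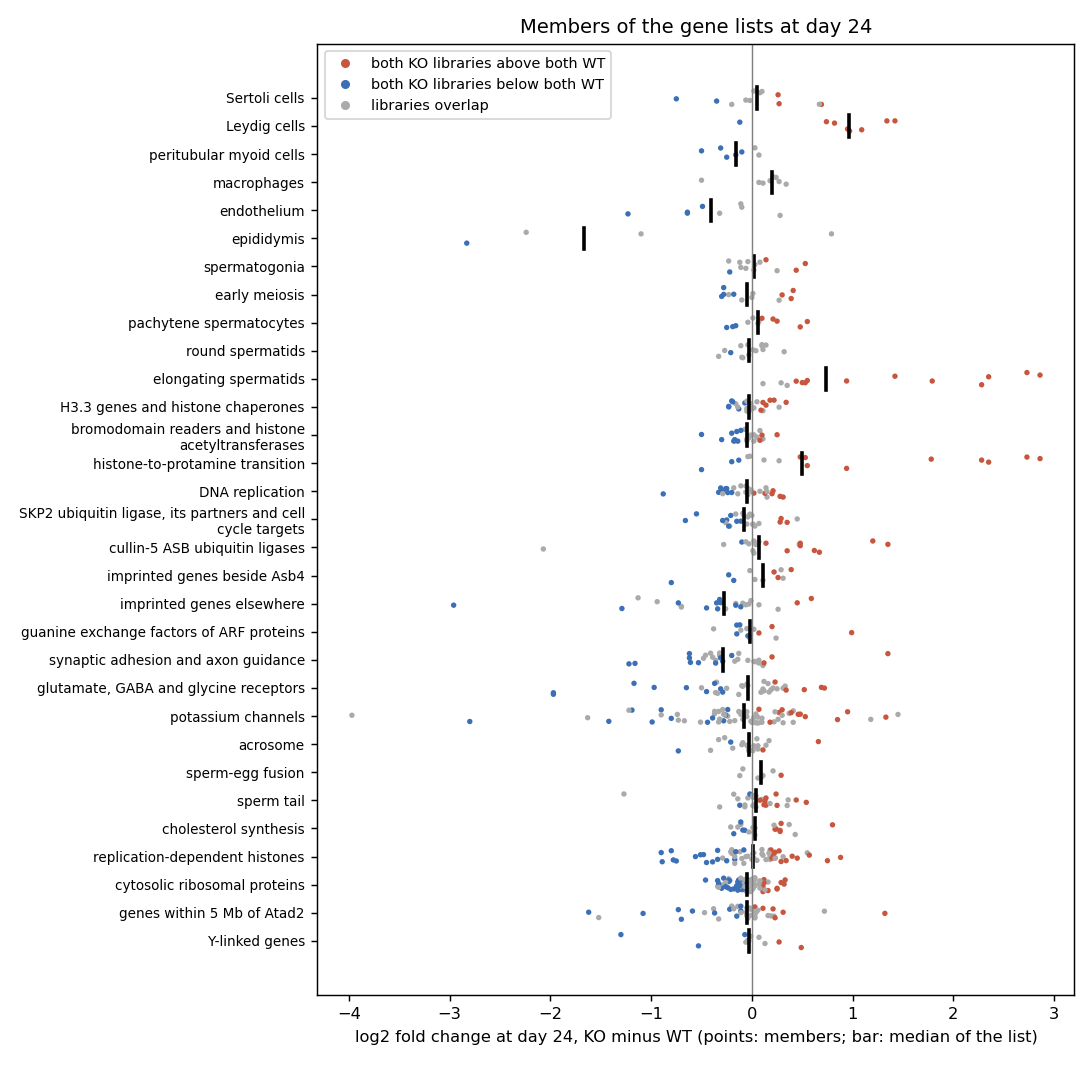
Log2 fold change at day 24 (horizontal axis, KO minus WT) of the tested members of each list with at least 4 of them, as points, with the list's median as a black bar. Red points have both KO libraries above both WT libraries, blue points both below, and grey points overlap. Leydig cells (median 0.96), elongating spermatids (0.74) and the histone-to-protamine transition (0.50) lie to the right. The epididymis (-1.67, 4 tested) and endothelium (-0.41) lie to the left, while most other lists centre near zero.

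Among somatic cells, the steroid-producing Leydig cells had the list with the highest median. Of 8 markers, 4 had an unadjusted p under 0.05, all higher in KO, as did 2.78% of all genes tested in that direction. For 7 both KO libraries were above both WT libraries (87.5%, against 22.6% of all genes tested), and the median log2 fold change was 0.96. *Lhcgr* was the narrow case, at 20.8 and 27.5 CPM in WT and at 29.1 and 65.6 in KO. None of the 8 markers was called by edgeR or DESeq2. *Insl3*, a Leydig cell peptide hormone, was at 20.7 CPM in WT_d24_1, 27.5 in WT_d24_2, 72.2 in KO_d24_1 and 56.3 in KO_d24_2 (log2 fold change 1.42, SE 0.542, adjusted p = 0.723). *Star*, which brings cholesterol into mitochondria, was at 38.4 and 43.5 CPM in WT and at 108 and 99.3 in KO (1.34, SE 0.598, adjusted p = 0.897). *Hsd3b1* was the exception, at 202 and 187 CPM in WT and at 177 and 181 in KO (-0.12). The summed level of the list was 589 and 851 CPM in WT and 1060 and 1300 in KO. At days 20, 22 and 26 the log2 fold changes were 1.24, 0.53 and -0.08 for *Insl3* and 1.07, -0.34 and -0.44 for *Star*, none of them called. *Hsd17b3* had 0.00, 1.22 and -0.01 on those days, and 1.09 at day 24. EdgeR called it higher at day 22 (adjusted p = 0.0423), where 1.26% of genes tested were. Its libraries overlapped on that day, at 2.21 to 4.86 CPM in WT and 4.09 to 13.0 in KO.

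The other somatic lists had no call by edgeR or DESeq2. Endothelial markers (8 tested, 1 with an unadjusted p under 0.05) had a median log2 fold change of -0.41, and *Emcn* was at 3.72 and 5.02 CPM in WT and at 2.56 and 1.18 in KO. Peritubular myoid markers (7 tested, 0 with an unadjusted p under 0.05) had a median of -0.16, with *Acta2*, smooth muscle actin, at 281 and 310 CPM in WT and at 235 and 242 in KO. Sertoli cell markers (12 tested) had a median of 0.05 and 1 gene in each direction with an unadjusted p under 0.05. The higher was *Rhox5* (7.32 and 8.89 CPM in WT, 12.1 and 14.1 in KO) and the lower *Amh* (7.69 and 7.20 in WT, 5.25 and 3.59 in KO). Macrophage markers (8 tested) had a median of 0.20 and none with an unadjusted p under 0.05. Of the blood markers only *Alas2* was tested, at 7.26 CPM in both WT libraries and at 8.42 and 8.37 in KO, and the 4 globin genes were at 0 in every day 24 library.

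Genes that work on histones were taken as lists because of the known biochemistry of ATAD2, and none of their members was called by edgeR or DESeq2. The 26 genes for histone H3.3 and histone chaperones had log2 fold changes between -0.23 and 0.34, a median of -0.03 and no unadjusted p under 0.05. *Cabin1*, a subunit of the HIRA complex, was at 110 and 92.1 CPM in WT and at 85.4 and 87.0 in KO (-0.23, SE 0.190). The 22 genes for bromodomain readers and histone acetyltransferases had a median of -0.05 and no unadjusted p under 0.05. *Brdt*, the testis bromodomain protein, was at 372 and 309 CPM in WT and at 296 and 298 in KO (-0.20, SE 0.165). *Nutm1*, the partner of p300 in spermatid histone acetylation, was at 58.1 and 40.8 CPM in WT and at 33.2 and 36.6 in KO (-0.50, SE 0.374). For both genes the gap between the lower WT and the higher KO library was smaller than the gap between the WT libraries.

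The 16 tested genes of the histone-to-protamine transition, which share 7 members with the elongating spermatid list, had a median of 0.50 and 3 with an unadjusted p under 0.05. *Tssk6*, a kinase required for histone removal, was at 3.16 and 4.75 CPM in WT and at 17.9 and 9.28 in KO (log2 fold change 1.78, SE 0.619, adjusted p = 0.588). The 56 replication-dependent histone genes had a median of 0.01 and no unadjusted p under 0.05.

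The remaining lists relate to the called genes by family. Of 36 tested receptors for glutamate, GABA and glycine, *Grik2* was the 1 call, and 1 further gene with an unadjusted p under 0.05 was lower in KO. This was *Grin2b*, an NMDA receptor subunit, at 3.66 and 5.16 CPM in WT and at 1.73 and 0.523 in KO (log2 fold change -1.97, SE 0.662, adjusted p = 0.527), with log2 fold changes of -3.51 at day 22 and -2.36 at day 26. Among 31 tested synaptic adhesion and axon guidance genes none was called by either tool, and 2 had an unadjusted p under 0.05, both lower in KO. *Robo2*, a SLIT receptor, was at 3.66 and 4.21 CPM in WT and at 2.21 and 1.18 in KO (-1.22, adjusted p = 0.483).

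Of 70 tested potassium channel genes none was called by either tool, and 6 had an unadjusted p under 0.05, 4 lower and 2 higher in KO. *Kcnab1*, a channel beta subunit, was at 15.3 and 13.2 CPM in WT and at 1.59 and 2.48 in KO. Its log2 fold change of -2.80 was as large as that of *Asb4*, but its SE was 0.889 and its adjusted p 0.501. It was at -3.90 on day 22 and at -3.12 on day 26. The 24 tested imprinted genes outside the *Asb4* cluster had a median log2 fold change of -0.28, with 20 lower and 4 higher by sign. Both KO libraries were below both WT libraries for 10 (41.7%, against 21.4% of all genes tested). They were above for 2 (8.33%, against 22.6%). EdgeR called none of these genes and DESeq2 called *Nnat*. An unadjusted p under 0.05 was found for 3, 1 higher and 2 lower in KO. The higher one was *Mkrn3*, at 2.11 and 2.72 CPM in WT and at 3.31 and 3.92 in KO (log2 fold change 0.59, adjusted p = 0.937). *H19*, an imprinted noncoding RNA, was at 13.2 and 16.2 CPM in WT and at 6.15 and 5.82 in KO (-1.29, SE 0.362, adjusted p = 0.346).

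Lists with no known tie to the called genes gave the general level of the comparison. The 84 cytosolic ribosomal protein genes had a median log2 fold change of -0.05 and the 21 cholesterol synthesis genes 0.03, with no call by either tool and no unadjusted p under 0.05 in either. Of 729 tested X-linked genes none was called by either tool, 12 were higher and 18 lower at an unadjusted p under 0.05, and the median was -0.04. Of 11 tested Y-linked genes none was called by either tool, none had an unadjusted p under 0.05, and the median was -0.03.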

How the data were processed

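Total RNA of testis was depleted of ribosomal RNA and sequenced as strand-specific pairs. The authors aligned reads to mm10 with STAR 2.7.11b and counted pairs per gene with HTSeq, by strand and within exons, dropping pairs with several alignments, so values of genes with close copies are uncertain. The deposited values are raw counts, 1 table per library, with 24456 genes and 5 tally rows, which were left out. The version of the gene models is not given in the sources used here. Genes were placed with GENCODE M21.

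Counts were tested with edgeR 4.0.16 (R 4.3.3): TMM scaling, filterByExpr (minimum count 10), robust quasi-likelihood fit over 24 libraries and 8 groups, two-sided, Benjamini-Hochberg over 17170 genes, called under 0.05. DESeq2 1.42.0 was an alternative. The code was tested on simulated data. At day 24 a count of 3 corresponds to 0.186 to 0.207 TMM-scaled CPM, which covers counting error only. Named genes were *Atad2*, every called gene, 8 uncalled genes in each direction by lowest p with at least 1 CPM and no overlap of libraries, up to 4 members of each list by lowest p and the markers. Members and lists were chosen with earlier results of these data known.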

Additional observations from a re-analysis of the deposited data

Results flagged for a closer look

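Pairs that did not lie wholly within exons on the counted strand were assigned to no gene and enter no comparison above. They made up 47.4% and 48.2% of all pairs in the WT libraries of day 24 and 50.4% and 53.7% in the KO libraries. Their mean was 47.8% ± 0.622 (SD, n = 2) in WT and 52% ± 2.35 in KO, so both KO libraries were above both WT libraries. This was noted because the share lies outside the counts analysed and was higher in KO than in the control libraries. Over the other days the ranges of the genotypes overlapped, for example 47.3% to 51.6% in WT and 49.8% to 54.8% in KO at day 22. What these pairs were was not tested.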

How the results depend on the processing

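The 15 calls at day 24 became 37 with DESeq2, 9 with the replicate number as a replicate block, 83 (55 higher in KO) with the stage score (round spermatid minus pachytene marker level of a library) as a covariate and 317 (174 higher) when day 24 was fitted alone with a replicate block, an alternative chosen after seeing the data. RLE size factors, upper-quartile scaling, no filter on low counts, a fit without the robust option and day 24 fitted alone gave 15, 17, 16, 15 and 11 calls. Leaving out 1 library of the 24 gave 0 to 23 calls, with 0 without KO_d24_1, 1 without WT_d24_2, 3 without KO_d24_2 and 23 without WT_d20_2, a library with many multiply aligned pairs. All 15 genes stayed called under DESeq2, 7 under the block, 6 when day 24 was fitted alone and 14 when day 24 was fitted alone with the block. The same-number correlation ran from 0.0705 to 0.41 over the pairs of day 20 and from -0.459 to -0.0254 over those of day 22, with 0.39 at day 24 and 0.416 at day 26. Not every pair was above 0.1, so the numbers were not taken to pair the animals. The pairs under 0.1 were of days 20 and 22, which hold other libraries, so they cannot decide whether the numbers pair the animals at day 24. With 2 libraries a group, both pairs of a day give the same value by construction. At days 24 and 26 the libraries numbered 2 of both genotypes were also those with high *Crisp1*. Of the differences between days, that against the other days gave 4 calls with DESeq2, and leaving out 1 library gave 0 to 1, 0 to 1 and 0 to 3 calls for day 22, day 26 and the other days, all calls without WT_d24_1. No called gene that is named changed sign under any of these settings. The Sertoli list level moved from 0.08 to -0.01 as a median. The cause of these shifts was not tested. With 2 libraries a genotype, a gene needs a large difference to be called, and most uncalled genes are undecided, not shown to be alike.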
